A study of Mus musculus with 11 samples.

Results

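The 10 genes of the MHC class II pathway, namely the chains, peptide-loading proteins and master regulator with which phagocytes display peptides to CD4+ T cells, were followed in CX3CR1+ mononuclear phagocytes from 3 regions of the mouse epididymis. The members were the rows of the deposited expression table whose gene name was H2-Aa, H2-Ab1, H2-Eb1, H2-DMa, H2-DMb1, H2-DMb2, H2-Oa, H2-Ob, Cd74 or Ciita. This gave 11 rows for 10 names out of 37583 genes, because Ciita named 2 rows. All 11 rows passed the filter on low counts. Of the libraries, 4 came from the initial segments (IS), the first stretch of the epididymal duct, 3 from the caput/corpus that follows, and 4 from the cauda, where sperm are stored. Every library came from mice aged 12 weeks that were CX3CR1 EGFP +/-, so that EGFP was made under the control of the gene for the fractalkine receptor, and was made of EGFP+ cells that went through a double sort, from 4 epididymides. All groups carried the same reporter, and the sort rested on expression from the Cx3cr1 gene, whose own RNA was higher in IS than in either other region. The labels do not say which animals gave which library, so p-values measure the spread between these libraries, which may in part be technical.

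Class II molecules are pairs of an alpha and a beta chain. In the endoplasmic reticulum they bind the invariant chain Cd74, which blocks the groove until proteases in endosomes trim it to a short peptide. H2-DM, a related alpha and beta pair, then exchanges that peptide for peptides of the antigen, and H2-O, a further such pair best known from B cells and dendritic cells, binds H2-DM and restrains it. Ciita is the co-activator best known for turning on class II genes. It does not bind DNA itself but docks on factors seated at a conserved pair of promoter elements, the X box (bound by the RFX complex and by CREB) and the Y box (bound by NF-Y).

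The promoter elements are shown first, as far as matching letters were found in the members' promoters. Promoters from 250 bases before to 50 bases after the start site, from RefSeq with the table's build GRCm38.p6, were on hand for 7 of the 10 genes. H2-Ab1, Cd74 and Ciita had no entry. Both strands were searched for TGATTGG, which holds the reverse complement of the CCAAT core of the Y box, and for AACNNATGA, part of the X box. The 2 do not overlap, and both were chosen after these promoters had been read. Capitals mark the matches in the following windows of 67 bases on the gene's own strand.
H2-Aa: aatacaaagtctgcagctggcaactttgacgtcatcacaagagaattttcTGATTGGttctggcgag
H2-Eb1: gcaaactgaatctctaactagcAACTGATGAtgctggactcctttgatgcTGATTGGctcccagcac
H2-DMb1: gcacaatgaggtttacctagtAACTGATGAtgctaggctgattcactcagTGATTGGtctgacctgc
H2-DMb2: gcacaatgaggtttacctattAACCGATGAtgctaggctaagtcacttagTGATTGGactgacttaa
H2-Oa: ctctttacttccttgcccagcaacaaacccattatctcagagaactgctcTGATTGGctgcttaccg
H2-Ob: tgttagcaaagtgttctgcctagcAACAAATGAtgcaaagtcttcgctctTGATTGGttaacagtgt
These windows lie at chr17:34287857-34287923 (minus strand) for H2-Aa and, on the plus strand, at chr17:34305756-34305822 for H2-Eb1, chr17:34153078-34153144 for H2-DMb1, chr17:34145107-34145173 for H2-DMb2, chr17:34092284-34092350 for H2-Oa and chr17:34238796-34238862 for H2-Ob. The Y-box letters stood in the promoters of 6 of the 7 genes, beginning 45 to 92 bases before the start site, against 7.82% of all 32851 promoters in the table. The X-box letters stood in 4 of the 7, against 2.85% of all promoters, and both together stood in 0.307% of all promoters. In H2-Eb1, H2-DMb1, H2-DMb2 and H2-Ob the X-box letters ended 17 to 20 bases before the Y-box letters. In H2-Aa and H2-Oa only the Y-box letters matched, and neither of the 2 promoters listed for H2-DMa held a match to either set of letters in this window.

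Reads on genes ranged from 16873180 to 31737132 per library. For 3 libraries the 2 deposited sources conflicted. No column matched the counts filed as IS replicate 2, the counts filed as caput/corpus replicate 1 matched the column of IS replicate 2, and those filed as cauda replicate 1 matched the column of caput/corpus replicate 1. Values given here follow the named columns. With reads placed as the count files are filed, edgeR called 0 of the 11 rows in IS against caput/corpus and 0 in IS against cauda, where it called 0% and 0.0263% of genes, with 2 and 8 rows at an unadjusted p below the threshold. The log2 fold changes of all 10 genes stayed negative in both and were smaller. With only the 8 libraries whose sources matched, 7 and 10 rows were called, where 6.24% and 15.8% of genes were. Without cauda replicate 1 edgeR called 10 and 10 rows, where 9.02% and 20.8% of genes were called. Cauda replicate 1, whose reads came from a column alone, stood apart with 13434 genes detected, against 17053 to 18837 in the other libraries. Cx3cr1, the gene behind the sort, was detected in every library (212 ± 30.5 RPKM in IS, 112 ± 31.8 RPKM in caput/corpus and 83.6 ± 13.4 RPKM in cauda libraries).

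RNA of the pathway was lower in IS phagocytes than in those of the other regions, most clearly against cauda. Of the 11 rows, 7 fell in IS against caput/corpus and none rose, at an adjusted p below 0.05 in edgeR's quasi-likelihood test, where 3.78% of 15116 genes were called in either direction and 2.98% were called lower in IS. Against cauda, 10 of 11 rows fell in IS, where 16.5% of genes were called and 9.06% were called lower in IS. Between caput/corpus and cauda 0 of 11 rows were called by edgeR, with 0 at an unadjusted p below 0.05, where 0.615% of genes were called. DESeq2 called 10 rows in IS against caput/corpus, where it called 8.86% of genes, 10 in IS against cauda, where it called 23.8%, and 0 in caput/corpus against cauda, with 1 row at an unadjusted p below 0.05. The median log2 fold change of the 11 rows was -0.70 in IS against caput/corpus and -0.91 in IS against cauda, beside medians of 0.02 and 0.05 over all genes tested. The IS libraries lay below every library of the other region for 7 rows against caput/corpus and for 8 rows against cauda, where this was so for 7.51% and 7.95% of the genes tested. Because the cells were pooled, fewer cells of a class II-rich type and less class II RNA per cell cannot be told apart.

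**Figure D1:**
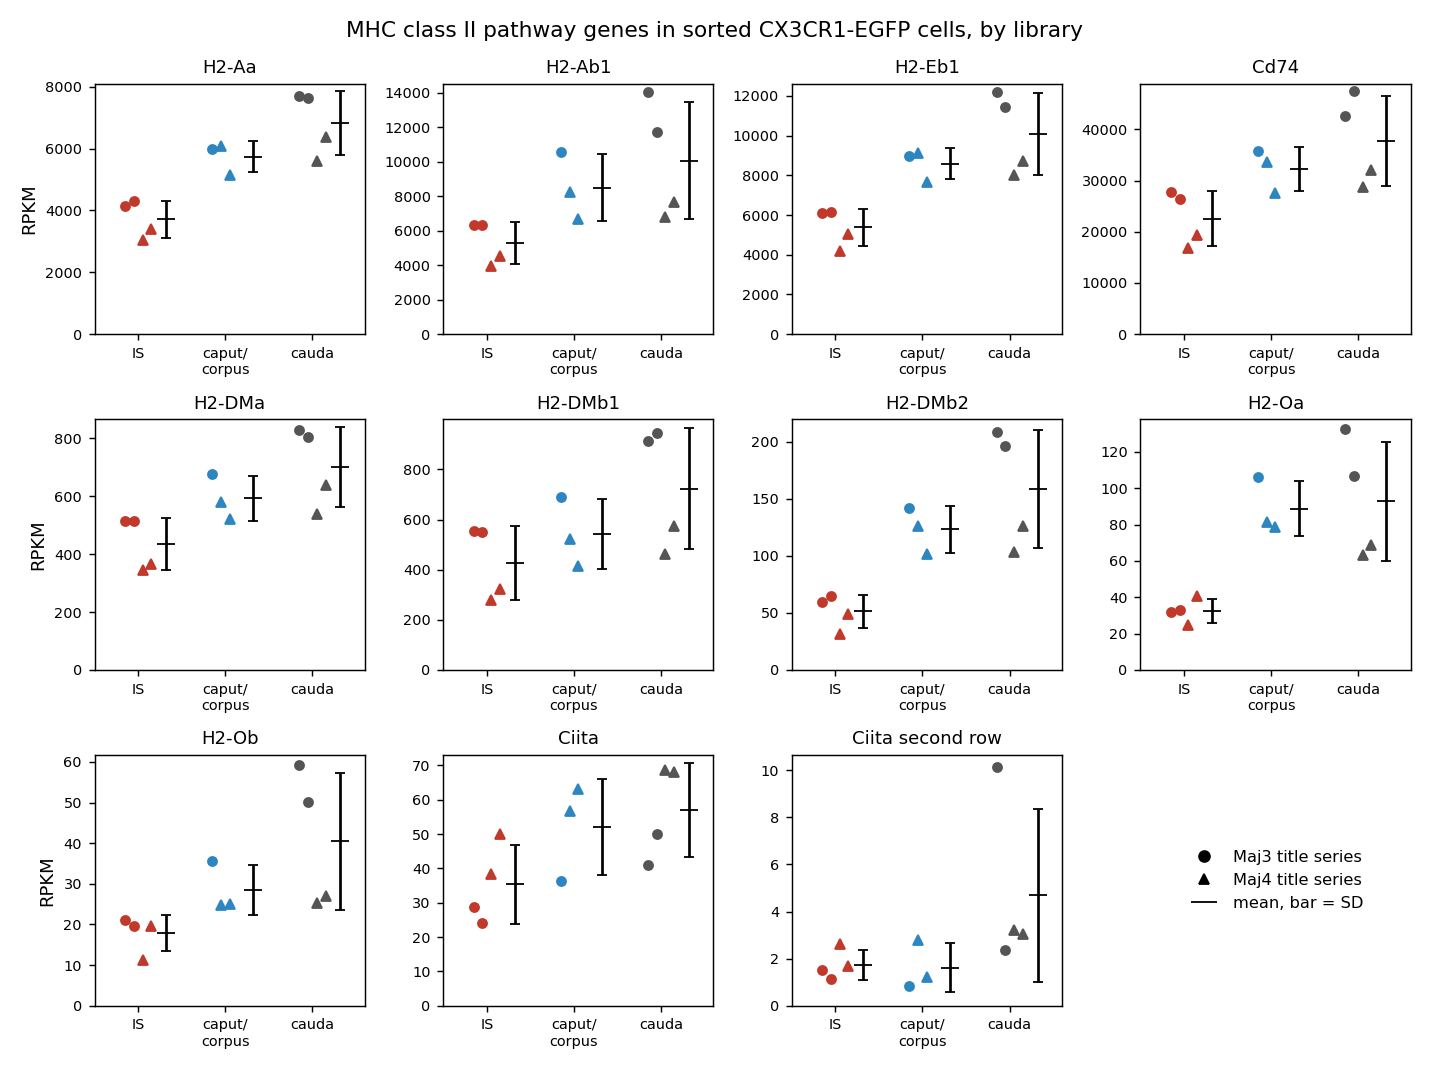
RPKM (reads scaled by gene length and effective library size) of each member in IS, caput/corpus and cauda libraries, 1 point per library, with the region mean and SD as a bar beside the points; circles are libraries titled Maj3 and triangles those titled Maj4. The IS mean is the lowest of the 3 in the panels of all 10 genes, Ciita alone has its triangles above its circles in all regions, and the second Ciita row is near the bottom of the scale except in cauda replicate 1.

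The classical class II chains were among the most abundant transcripts of these cells. H2-Aa, the alpha chain of I-A, the mouse counterpart of human HLA-DQ, had 4156, 4290, 3045 and 3394 RPKM in IS replicates 1 to 4, against 5992, 6074 and 5161 RPKM in caput/corpus replicates 1 to 3 and 7709, 7649, 5597 and 6373 RPKM in cauda replicates 1 to 4. No IS library reached the level of any library of the other regions. Its log2 fold change was -0.70 ± 0.12 (SE; edgeR adjusted p = 0.0102) in IS against caput/corpus and -0.88 ± 0.11 (edgeR adjusted p = 0.000515) in IS against cauda.

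H2-Ab1, the beta chain of I-A, had 6304, 6302, 3952 and 4531 RPKM in IS, against 10552, 8221 and 6678 RPKM in caput/corpus and 14022, 11728, 6815 and 7671 RPKM in cauda libraries. The IS libraries again lay below all others, though IS replicates 1 and 2 came close to caput/corpus replicate 3. The log2 fold change was -0.81 ± 0.14 (edgeR adjusted p = 0.0101) against caput/corpus and -0.91 ± 0.13 (edgeR adjusted p = 0.000951) against cauda. H2-Eb1, the beta chain of I-E, the counterpart of HLA-DR, had 6086, 6175, 4207 and 5031 RPKM in IS, against 8978, 9100 and 7688 RPKM in caput/corpus and 12218, 11463, 8001 and 8700 RPKM in cauda libraries. These values did not overlap between IS and either other region, and the log2 fold change was -0.76 ± 0.13 (edgeR adjusted p = 0.0103) against caput/corpus and -0.91 ± 0.12 (edgeR adjusted p = 0.000705) against cauda. The 3 chains thus differed by 1.62-fold to 1.75-fold between IS and caput/corpus, and by 1.85-fold to 1.88-fold between IS and cauda. Without IS replicate 3 none of the 3 was called against caput/corpus, with edgeR adjusted p of 0.0508 to 0.0523, while against cauda all 3 stayed called whichever library was left out.

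Other class II genes of the locus were close to silent. H2-Eb2, a second I-E beta chain gene, averaged 0.528 ± 0.572 RPKM in IS, 1.05 ± 0.461 RPKM in caput/corpus and 1.22 ± 0.632 RPKM in cauda libraries. The row named H2-Ea-ps, the I-E alpha locus, had 64 reads in the 11 libraries together. Neither was called in any comparison.

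Cd74, the invariant chain, was the top gene per length in all caput/corpus and cauda libraries and ranked 1 to 3 in the IS libraries. It had 27802, 26362, 16767 and 19410 RPKM in IS, against 35806, 33667 and 27502 RPKM in caput/corpus and 42620, 47433, 28768 and 32039 RPKM in cauda libraries. The IS libraries lay below all cauda libraries, whereas IS replicate 1 was slightly above caput/corpus replicate 3. The log2 fold change was -0.75 ± 0.13 (edgeR adjusted p = 0.00287) in IS against cauda and -0.63 ± 0.14 (edgeR adjusted p = 0.0313) in IS against caput/corpus. The call against caput/corpus was lost in 9 of the 11 fits that left out 1 library, with edgeR adjusted p up to 0.140, and limma on log2(RPKM + 1) called Cd74 neither against caput/corpus (adjusted p = 0.341) nor against cauda (adjusted p = 0.105). Together the members took 4.83% to 7.11% of all reads on genes in IS, 8.13% to 9.56% in caput/corpus and 8.29% to 12.1% in cauda libraries, and Cd74 made up more than any other member.

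H2-DM, the peptide exchanger, is built from the alpha chain H2-DMa and a beta chain that the mouse encodes in a pair of neighbouring genes, H2-DMb1 and H2-DMb2. H2-DMa had 513, 513, 345 and 367 RPKM in IS, against 677, 581 and 522 RPKM in caput/corpus and 827, 805, 538 and 639 RPKM in cauda libraries. The groups did not overlap, but the highest IS and the lowest caput/corpus library were close. Its log2 fold change was -0.55 ± 0.10 (edgeR adjusted p = 0.0148) in IS against caput/corpus, a call lost without IS replicate 3 and without caput/corpus replicate 2 (edgeR adjusted p up to 0.0702). In IS against cauda the log2 fold change of H2-DMa was -0.70 ± 0.09 (edgeR adjusted p = 0.000736).

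The beta chain genes had fold changes of different size. H2-DMb1, the more abundant of the pair, had 556, 552, 279 and 323 RPKM in IS, against 689, 524 and 414 RPKM in caput/corpus and 912, 944, 463 and 573 RPKM in cauda libraries. Its IS values overlapped those of both other regions, with IS replicates 1 and 2 well above IS replicates 3 and 4. The log2 fold change was -0.53 ± 0.13 in IS against caput/corpus and missed the threshold (edgeR adjusted p = 0.0514; DESeq2 called it), and it was -0.77 ± 0.12 (edgeR adjusted p = 0.00165) in IS against cauda.

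H2-DMb2 had 59.8, 64.4, 31.8 and 49.3 RPKM in IS, against 142, 126 and 101 RPKM in caput/corpus and 209, 196, 103 and 126 RPKM in cauda libraries. No IS library came near the lowest library of either other region. The log2 fold change was -1.40 ± 0.17 (95% interval -1.79 to -1.02; edgeR adjusted p = 0.00321) in IS against caput/corpus and -1.61 ± 0.16 (-1.97 to -1.25; edgeR adjusted p = 0.000194) in IS against cauda, which is 2.64-fold and 3.05-fold lower in IS. Both calls held in all 11 fits that left out 1 library, and with the 8 libraries of matching sources the log2 fold changes were -1.53 and -1.57. With reads placed as filed they were -0.87 and -1.25, neither called (edgeR adjusted p = 0.641 and 0.104). The 2 genes are close copies: 27.2% of the 50-base words of the longest H2-DMb1 transcript and 29.5% of those of H2-DMb2 were shared with the other gene, while the other members shared none with any gene. Reads from the shared stretches cannot be assigned to 1 of them, and counts from them may be missing or split.

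H2-O, the inhibitor of H2-DM, is built from H2-Oa and H2-Ob. H2-Oa, its alpha chain, had 31.8, 32.9, 24.7 and 40.8 RPKM in IS, against 106, 81.6 and 78.5 RPKM in caput/corpus and 132, 107, 63.4 and 68.6 RPKM in cauda libraries. The highest IS library was well below the lowest of the others. The log2 fold change of H2-Oa was -1.49 ± 0.22 (95% interval -1.98 to -1.01; edgeR adjusted p = 0.00587) in IS against caput/corpus and -1.46 ± 0.21 (-1.92 to -0.997; edgeR adjusted p = 0.00110) in IS against cauda, or 2.82-fold and 2.74-fold lower in IS. It kept both calls in all 11 fits that left out 1 library, and with the 8 libraries of matching sources the log2 fold changes were -1.41 and -1.25. With reads placed as filed they were -0.59 and -0.84, neither called (edgeR adjusted p = 0.750 and 0.301).

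H2-Ob, the beta chain of H2-O, had 21.2, 19.6, 11.2 and 19.7 RPKM in IS, against 35.5, 24.9 and 25.0 RPKM in caput/corpus and 59.2, 50.3, 25.3 and 27.1 RPKM in cauda libraries. The IS libraries were the lowest, with IS replicate 3 below the rest of its group. The log2 fold change was -0.78 ± 0.21 in IS against caput/corpus and missed the threshold (edgeR adjusted p = 0.0716; DESeq2 called it), and it was -1.11 ± 0.19 (edgeR adjusted p = 0.00345) in IS against cauda.

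Ciita, the co-activator, had 28.9, 24.2, 38.3 and 50.1 RPKM in IS, against 36.2, 56.7 and 63.1 RPKM in caput/corpus and 41.1, 49.996, 68.6 and 68.1 RPKM in cauda libraries. The regions overlapped in these raw levels, and the order within a region followed the title of the library. With the title series in the edgeR fit, the log2 fold change was -0.46 ± 0.12 in IS against caput/corpus (adjusted p = 0.0735, not called; DESeq2 called it) and -0.71 ± 0.11 in IS against cauda (adjusted p = 0.00214). In Ciita, then, IS was 1.64-fold lower than cauda, a size between those of H2-DMa and Cd74. That call was lost without the title series in the fit (edgeR adjusted p = 0.140), within Maj4 alone (0.0746) and within Maj3 alone (0.240).

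The second row named Ciita carries an Ensembl identifier, ENSMUSG00000075404, that the reference annotation used here does not hold, so what it covers is not known. It had 37 to 468 reads per library, and its levels were 1.51, 1.15, 2.64 and 1.68 RPKM in IS, 0.836, 2.80 and 1.23 RPKM in caput/corpus and 10.2, 2.37, 3.21 and 3.03 RPKM in cauda libraries. Cauda replicate 1 stood alone. The row was called in no comparison, and its log2 fold change in IS against cauda of -1.49 ± 0.63 (edgeR adjusted p = 0.145) was -0.63 without cauda replicate 1.

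**Figure D2:**
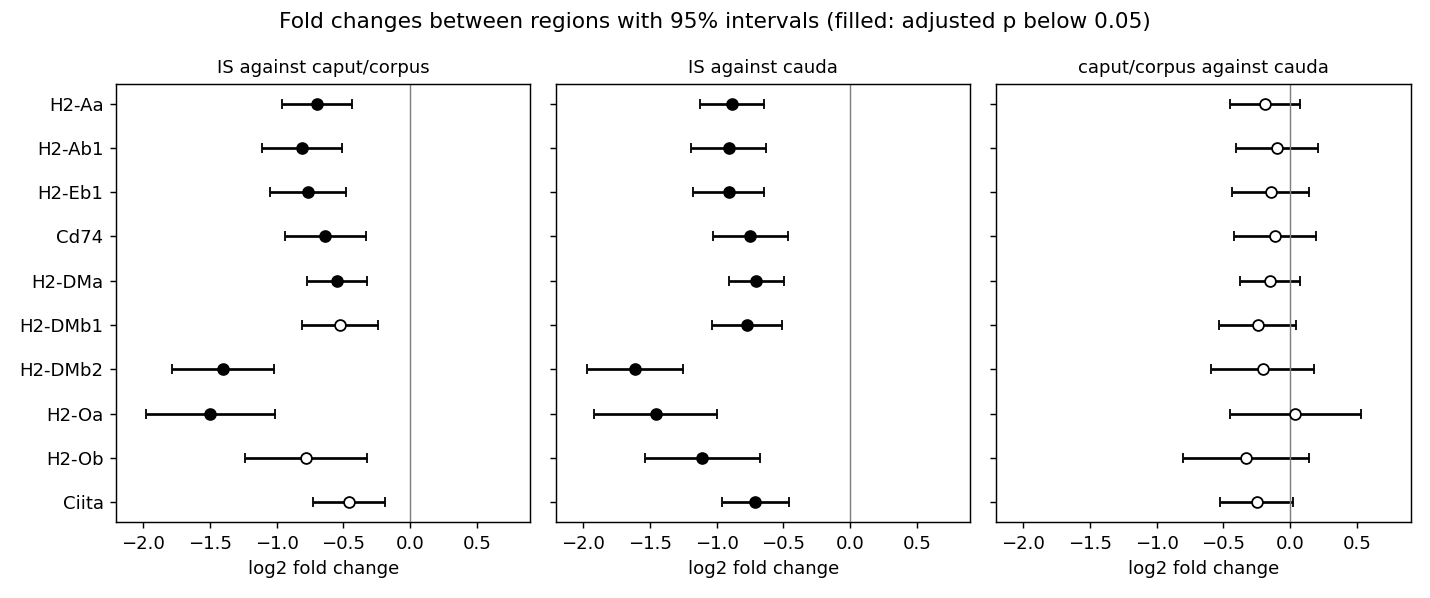
Log2 fold changes of the 10 genes (first row of Ciita only) in IS against caput/corpus, IS against cauda and caput/corpus against cauda, from the edgeR fit, with 95% intervals; filled points have an adjusted p below 0.05. All points of the first 2 panels lie below 0, with H2-DMb2 and H2-Oa farthest at -1.40 to -1.61, and every interval of the third panel takes in 0.

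Between caput/corpus and cauda the members' differences were small. Leaving out the second Ciita row, log2 fold changes in caput/corpus against cauda ran from -0.33 ± 0.21 for H2-Ob (95% interval -0.80 to 0.14) to 0.04 ± 0.22 for H2-Oa (-0.45 to 0.53). The narrowest limits were those of H2-DMa, with a log2 fold change of -0.15 ± 0.10 (-0.38 to 0.07). For H2-Aa the interval ran from -0.45 to 0.08, for H2-Ab1 from -0.41 to 0.21, for H2-Eb1 from -0.44 to 0.14 and for Cd74 from -0.42 to 0.19. A difference between these regions was not detectable with these libraries, and these intervals show the sizes that remain possible.

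Levels per length differed widely between members. In IS libraries Cd74 (22585 ± 5336 RPKM) was followed by H2-Eb1 (5375 ± 936 RPKM) and H2-Ab1 (5272 ± 1213 RPKM), which did not differ beyond their spread, and then by H2-Aa (3721 ± 599 RPKM). H2-DMa (435 ± 91.0 RPKM) and H2-DMb1 (427 ± 147 RPKM) were level, and H2-DMb2 (51.3 ± 14.5 RPKM), Ciita (35.4 ± 11.4 RPKM) and H2-Oa (32.5 ± 6.56 RPKM) came next with overlapping libraries, above H2-Ob (17.9 ± 4.52 RPKM). In caput/corpus and cauda libraries H2-DMb2 (123 ± 20.5 and 159 ± 52.1 RPKM) and H2-Oa (88.8 ± 15.2 and 92.8 ± 32.7 RPKM) instead had means above that of Ciita (52.0 ± 14.03 and 57.0 ± 13.6 RPKM). For H2-Oa this order turned in the Maj4 cauda libraries, which averaged 66.0 RPKM of H2-Oa and 68.3 RPKM of Ciita.

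Ratios between members within a library do not depend on library size. For 4 of them the 3 comparisons were made with two-sided exact permutation tests, 12 in all. These tests did not take the title series into account. H2-DMb2 stood at 0.108, 0.117, 0.114 and 0.153 of the RPKM of H2-DMb1 in IS, against fractions of 0.207, 0.240 and 0.246 in caput/corpus libraries and of 0.229, 0.208, 0.223 and 0.220 in cauda libraries. Every IS library lay below every other library. The mean log2 ratio was lower by 0.92 in IS against caput/corpus (-3.04 ± 0.22, n = 4, and -2.12 ± 0.14, n = 3; exact permutation p = 0.0571, the smallest this design allows) and by 0.85 in IS against cauda (-3.04 ± 0.22 and -2.19 ± 0.06, n = 4 each; exact permutation p = 0.0286, again the smallest possible). Adjusted over the 12 tests both stood at 0.229, so neither passed. In IS against cauda the difference was -0.74 within Maj4 and -0.96 within Maj3. With reads placed as filed it was -0.48 in IS against caput/corpus and -0.65 in IS against cauda (exact permutation p adjusted over the 12 tests, 0.971 and 0.343).

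The remaining ratios moved less. Cd74 relative to the mean of the 3 chains was slightly higher in IS than in caput/corpus, by 0.13 on the log2 scale without overlap (exact permutation p = 0.0571, adjusted 0.229), and by 0.15 against cauda with overlap (exact permutation p = 0.0857, adjusted 0.257). H2-O relative to H2-DM differed by -0.36 in IS against caput/corpus and by -0.27 in IS against cauda, with overlapping libraries (exact permutation p = 0.171 for each). Ciita relative to the chains and Cd74 overlapped between regions, with differences of 0.07 and 0.15 in IS against caput/corpus and cauda (exact permutation p = 0.857 and 0.600). This ratio parted by title series, and the spread between the series enters these p-values. Within Maj4 alone the 2 differences were 0.36 and 0.18, and within Maj3 alone 0.098 and 0.12.

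**Figure D3:**
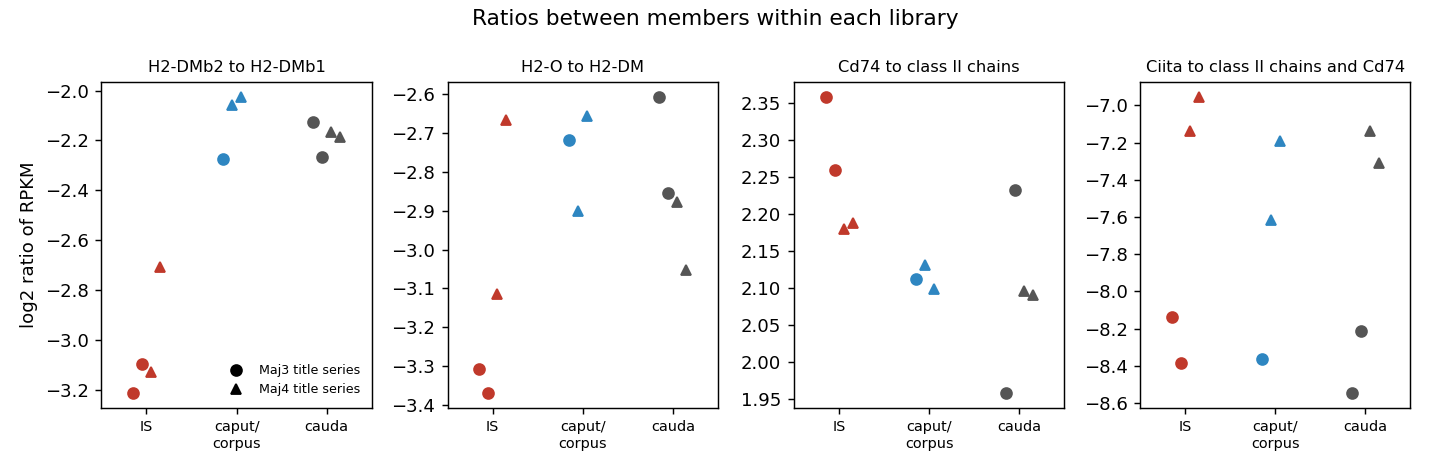
Log2 ratio of RPKM between members within each library, by region, for 4 ratios; circles are libraries titled Maj3 and triangles those titled Maj4. The 4 IS points of H2-DMb2 to H2-DMb1 lie below all 7 points of the other regions, and the points of Ciita to class II chains and Cd74 part by title series and not by region.

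The titles of the libraries fall into a Maj3 and a Maj4 series, with 2 and 2 IS, 2 and 1 caput/corpus, and 2 and 2 cauda libraries for Maj4 and Maj3, and what the 2 names stand for is not given. In Maj4 against Maj3, 9 of 11 rows were called by edgeR, where 20.3% of all genes were called. Of these, 8 were lower in Maj4, from H2-Aa (log2 fold change -0.30 ± 0.09, edgeR adjusted p = 0.0481) to H2-DMb1 (-0.78 ± 0.10, edgeR adjusted p = 0.000784). Ciita went the other way: it averaged 44.2 RPKM in Maj4 and 26.6 RPKM in Maj3 IS libraries, 59.9 and 36.2 RPKM in caput/corpus, and 68.3 and 45.6 RPKM in cauda libraries, a log2 fold change of 0.69 ± 0.10 (edgeR adjusted p = 0.00126). Within every region each Maj4 library had more Ciita and less H2-Ab1 than each Maj3 library. Between 12.5% and 14.7% of reads were not uniquely aligned in the count files of Maj4, against 27.6% to 35.8% in those of Maj3, and its part in these differences was not tested.

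The region differences were set beside this split. Within Maj4 alone edgeR called 6 rows in IS against caput/corpus, where it called 3.07% of genes, and 8 in IS against cauda, where it called 7.67%. Within Maj3 alone, with a single caput/corpus library, it called 0 in both, with 7 and 10 rows at an unadjusted p below 0.05, where 0% and 0.186% of genes were called. The log2 fold changes had the same sign in both series for all 10 genes in both comparisons: for H2-DMb2 in IS against cauda they were -1.49 in Maj4 and -1.66 in Maj3, for H2-Ab1 -0.77 and -0.98, for Cd74 -0.75 and -0.68, and for Ciita -0.63 and -0.73. The chains of H2-O differed more between the series in IS against cauda: the log2 fold change was -1.01 in Maj4 and -1.84 in Maj3 for H2-Oa (unadjusted p of the interaction 0.0283), and -0.76, not called, in Maj4 and -1.38 in Maj3 for H2-Ob (0.0905). No gene of the 15116 tested had a called interaction of region and series in any comparison. Without the series in the fit only 1 row, H2-Oa, was called in IS against caput/corpus and 8 in IS against cauda, where 1.54% and 9.8% of genes were called. The calls lost against cauda were those of H2-DMb1 and Ciita.

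**Figure D4:**
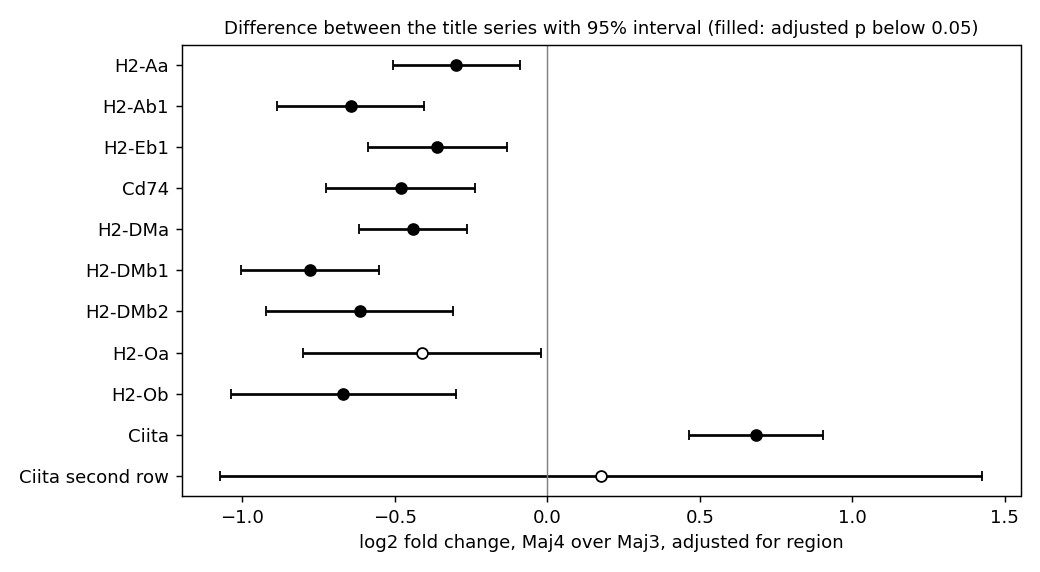
Log2 fold change of each row in Maj4 over Maj3 libraries, adjusted for region, with 95% intervals from the edgeR fit; filled points have an adjusted p below 0.05. The points of 9 rows lie below 0, and Ciita lies at 0.69 with an interval that does not reach 0.

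None of 7 genes for the promoter factors (subunits of the RFX and NF-Y complexes and CREB) was called in any comparison. Nfyb, an NF-Y subunit, came nearest, with 5.97 ± 2.39 RPKM in IS and 8.81 ± 1.90 RPKM in caput/corpus libraries (log2 fold change -0.77 ± 0.25, edgeR adjusted p = 0.132). Of 9 genes that induce Ciita or carry the interferon gamma signal, 0 were called in IS against caput/corpus and 3 in IS against cauda, where 16.5% of all genes were called. Against cauda, Irf1, which activates a Ciita promoter, rose in IS (61.4 ± 16.0 and 43.6 ± 11.8 RPKM; log2 fold change 0.49 ± 0.10, edgeR adjusted p = 0.00851), as did Ifngr2, a chain of the interferon gamma receptor (90.7 ± 15.2 and 63.7 ± 4.10 RPKM; 0.50 ± 0.14, edgeR adjusted p = 0.0330). Jak2, the kinase attached to that chain, fell in IS (11.5 ± 2.05 and 20.6 ± 7.02 RPKM; -0.82 ± 0.20, edgeR adjusted p = 0.0198).

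Proteases that digest antigen and the invariant chain were mostly higher in IS than in cauda. Of 7 genes on this list, 5 rose and 1 fell in IS against cauda, where 16.5% of all genes were called. In IS against caput/corpus 1 rose, where 3.78% of all genes were called. The list's median log2 fold changes were 0.86 against cauda and 0.51 against caput/corpus, beside 0.05 and 0.02 over all genes. Ctss, cathepsin S, which makes the last cut in the invariant chain, averaged 4147 ± 1079 RPKM in IS and 2256 ± 428 RPKM in cauda libraries (log2 fold change 0.86 ± 0.13, edgeR adjusted p = 0.00137). Legumain, Lgmn, an asparagine-specific endopeptidase, averaged 601 ± 73.3 RPKM in IS, 368 ± 107 RPKM in caput/corpus and 299.6 ± 14.8 RPKM in cauda libraries, and was the gene called in both comparisons (0.67 ± 0.15, edgeR adjusted p = 0.0333, and 0.99 ± 0.13, edgeR adjusted p = 0.000888). Ctsd, cathepsin D, showed the widest gap, with 1662 ± 389 RPKM in IS and 244 ± 35.7 RPKM in cauda libraries (2.72 ± 0.29, edgeR adjusted p = 0.000256). The gene that fell was Ifi30, the thiol reductase that opens disulfide bonds of antigens, named after its values were seen, with 259 ± 60.2 RPKM in IS and 430.3 ± 49.6 RPKM in cauda libraries (-0.78 ± 0.16, edgeR adjusted p = 0.00895). Of 3 genes of class II turnover, March8, a ubiquitin ligase, rose in IS against cauda (7.67 ± 1.14 and 3.36 ± 1.28 RPKM; 1.24 ± 0.20, edgeR adjusted p = 0.00216), while March1, the ligase known for removing class II from the surface of dendritic cells, was not called. Cd83, which shields class II from that ligase, averaged 204 ± 76.5 RPKM in IS, 307 ± 105 RPKM in caput/corpus and 336 ± 184 RPKM in cauda libraries. Its log2 fold change was -0.78 ± 0.22 in IS against caput/corpus and -0.64 ± 0.20 in IS against cauda, and neither passed (edgeR adjusted p = 0.0857 and 0.0564).

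Markers of the cell types that the sort could hold differed between the same regions. In IS against caput/corpus and against cauda, 3.78% and 16.5% of all genes were called in either direction. Lower in IS were 2.98% and 9.06% of them. Of 11 dendritic cell markers, 7 fell in IS against caput/corpus and 8 against cauda, and 0 rose. Their summed level ran from 247 to 450 RPKM in IS, 934 to 1260 RPKM in caput/corpus and 878 to 1791 RPKM in cauda libraries. Clec10a and Cd209a, lectins of conventional dendritic cells and some macrophages, had 65.0 ± 17.3 and 212 ± 74.3 RPKM in IS, against 209 ± 17.1 and 705 ± 145 RPKM in caput/corpus and 287 ± 62.4 and 812 ± 361 RPKM in cauda libraries. Most of the summed level came from these 2 genes. Flt3 had 6.17 to 13.4 RPKM in IS, against 23.3 to 24.7 in caput/corpus and 25.7 to 35.8 in cauda libraries. Zbtb46, Irf4, Batf3 and Btla were likewise lower in every IS library than in any other library. Clec9a, Itgae and Ccr7 overlapped between IS and both other regions, and Xcr1 between IS and caput/corpus. Clec9a had 7.46 to 16.0 RPKM in IS, 11.0 to 15.4 in caput/corpus and 5.22 to 17.4 in cauda libraries. Itgae had 0.476 to 1.17 RPKM in IS, 0.286 to 1.01 in caput/corpus and 0 to 0.873 in cauda libraries. Of 5 monocyte markers 4 fell in IS against caput/corpus and 5 against cauda, with sums of 144 to 330 RPKM in IS, 488 to 768 RPKM in caput/corpus and 695 to 1057 RPKM in cauda libraries. Macrophage markers went the other way: 2 of 8 rose in IS against caput/corpus and 7 against cauda, and they summed to 4572 to 5884 RPKM in IS, 3230 to 5108 RPKM in caput/corpus and 2661 to 3410 RPKM in cauda libraries. None of these markers was at 0 in a whole region. Their part in the class II differences was not tested.

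Further lists also differed between regions. Of all genes, 3.78% were called in IS against caput/corpus and 16.5% in IS against cauda. All 5 mast cell markers fell in IS in both comparisons, with sums of 7.49 to 28.3 RPKM in IS, against 225 to 330 RPKM in caput/corpus and 309 to 1195 RPKM in cauda libraries. Of 8 immediate early and stress genes, 7 fell in IS in each comparison, and they summed to 1580 to 3716 RPKM in IS, 3762 to 5719 RPKM in caput/corpus and 2320 to 6824 RPKM in cauda libraries. Of 10 epididymal epithelium genes, 5 rose and 1 fell in IS against caput/corpus and 9 rose against cauda, with sums of 917 to 2224 RPKM in IS, 209 to 378 RPKM in caput/corpus and 1.82 to 3.67 RPKM in cauda libraries. Between caput/corpus and cauda 6 of these epithelial genes rose in caput/corpus, where 0.615% of all genes were called in either direction. The part of these lists in the class II differences was not tested.

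Markers of B cells, which also use H2-O, were uneven. Of 8 B cell markers 5 could be tested, with 0 called in IS against caput/corpus and 1, Cd22, higher in IS against cauda (9.97 ± 2.45 and 3.39 ± 0.957 RPKM). In those comparisons 3.78% and 16.5% of all genes were called. The list summed to 282 to 503 RPKM in IS, 358 to 545 RPKM in caput/corpus and 364 to 713 RPKM in cauda libraries, most of it from the row of Ighm, the heavy chain of IgM. Cd79b, a signalling chain of the B cell receptor, had 17.3 to 48.9 RPKM, while Pax5, a transcription factor of the lineage, was at 0 reads in 9 of 11 libraries. The part of these genes in the class II differences was not tested. Of 6 T and NK cell markers, 1, Klrb1c, was higher in IS against cauda, and the list summed to no more than 30.0 RPKM in any library.

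**Figure D5:**
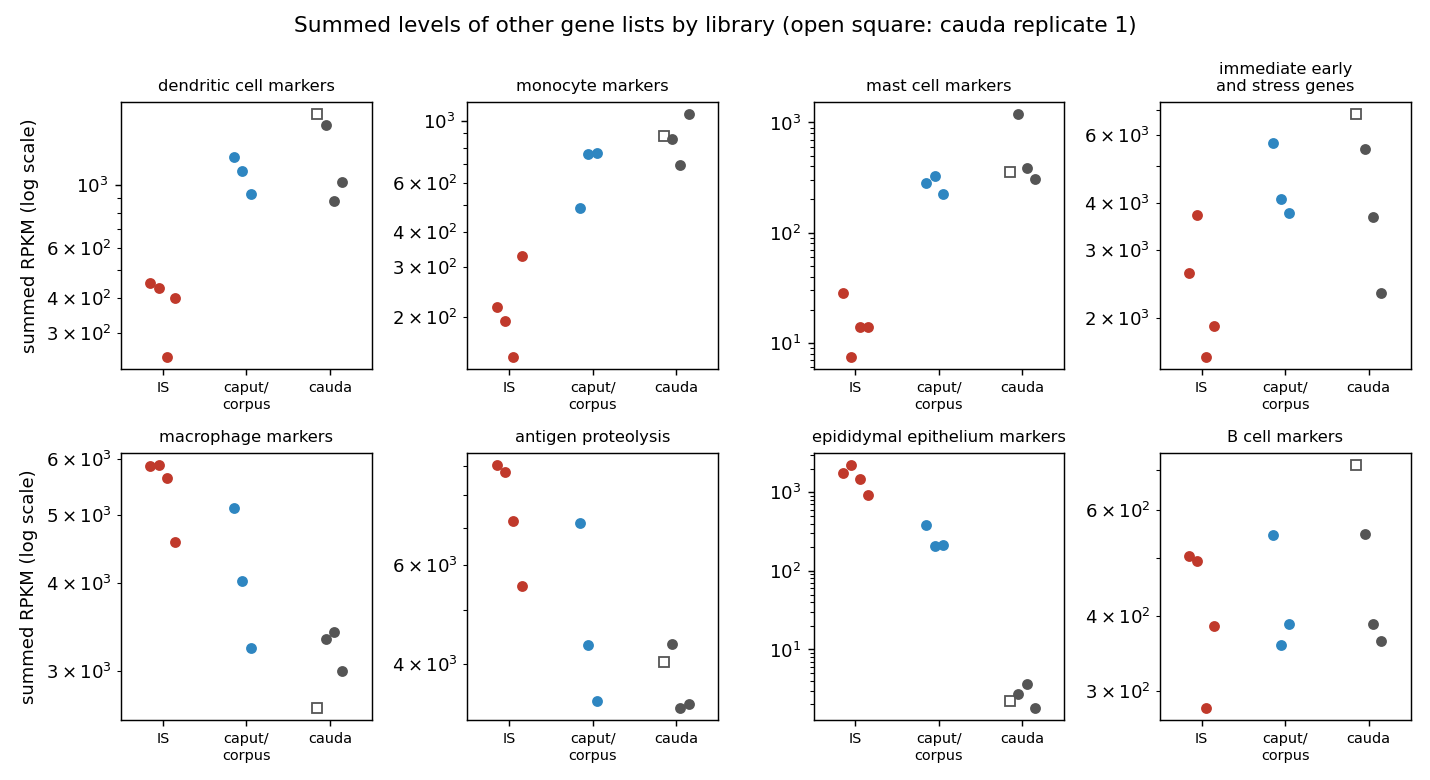
Summed RPKM (log scale) of 8 gene lists in each library by region; the open square is cauda replicate 1. Dendritic cell, monocyte and mast cell markers are lower in every IS library than in any other library, the epithelial list is highest in IS, and the macrophage and proteolysis lists overlap between IS and caput/corpus but not between IS and cauda.

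Genes outside the pathway were ranked by how closely their profile over the 11 libraries followed the mean of H2-Aa, H2-Ab1, H2-Eb1 and Cd74, measured as the root mean square difference of centred log2 RPKM. The nearest were Cd47, a surface protein that restrains phagocytosis (0.0678), Degs1, a sphingolipid desaturase (0.0700), Tpi1, a glycolytic enzyme (0.0860), Metrnl, a secreted protein (0.0944), and Aes, a co-repressor (0.0945), where the median over 15112 genes was 0.742. Cd47 averaged 87.3 ± 13.8 RPKM in IS, 135 ± 14.5 RPKM in caput/corpus and 156 ± 32.1 RPKM in cauda libraries. By the same measure H2-DMa ranked 6 of 15112, H2-DMb1 163 and H2-Ob 378, whereas H2-DMb2, H2-Oa, Ciita and the second Ciita row ranked 1739, 2285, 5243 and 8650. The ranking describes these libraries, which share depth, sort and title series.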

How the data were processed

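RNA from sorted cells of 11 libraries was taken with a PicoRNA kit and prepared with the SMARTer v4 kit, per the labels' protocols. The authors named STAR, HTSeq and edgeR without versions and mouse build mm9, per the submitters' processing notes. They deposited a table of RPKM with gene lengths and 1 file of unstranded read counts per sample, so a gene and an antisense partner cannot be told apart. RPKM times length was a whole multiple of 1 step in every deposited column, within 0.001 for all 37583 genes, and the whole reads so recovered were tested. The step was inversely proportional to the TMM effective library size.

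One edgeR 4.0.16 quasi-likelihood fit in R 4.3.3 held all libraries, with filterByExpr by region (15116 genes), TMM, and the title series as covariate. Adjusted p-values are Benjamini-Hochberg over all genes tested, called below 0.05. SE follow from the F statistic. The fit was tested on simulated counts. Other tools were limma 3.58.1 (log2 RPKM + 1 or + 0.1) and DESeq2 1.42.0. Ratios had 0.1 RPKM added.

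Named genes were all members, of each list at most 4 genes with the smallest p in a comparison besides cell type markers, and the 5 nearest profiles. The members and lists were chosen with earlier results of these data known, and the contrast and interaction of the title series were added after seeing the data. Reads carry no molecular identifiers. Replicates are numbered in accession order within a region. Promoters came from RefSeq (GRCm38.p6), used only for sequence. One marker of the B cell list is not reported here.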

Additional observations from a re-analysis of the deposited data

Results flagged for a closer look

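H2-Ob had 11.2 RPKM in IS replicate 3, against 19.6 to 21.2 RPKM in the other IS libraries, a gap large for a group of 4 by Dixon's criterion. The second row named Ciita had 10.2 RPKM in cauda replicate 1, against 2.37 to 3.21 RPKM in the other cauda libraries. Of 30 groups of 4 libraries examined in this way 2 stood out, and chance alone marks about 1 in 20. Their causes were not tested.

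The count file under IS replicate 2 that equals no column enters no comparison. It held 33411 RPKM of Cd74, when scaled together with the 11 libraries, against 16547 to 27436 RPKM in IS, 27140 to 35336 RPKM in caput/corpus and 28390 to 46809 RPKM in cauda libraries on that scale. In the same file H2-Ab1 stood at 9554 RPKM, H2-Oa at 94.96 RPKM and Ciita at 38.2 RPKM. The Cd74, H2-Ab1 and H2-Oa levels of this file were above those of all 4 IS libraries and within the ranges of both other regions. For H2-Ab1 these ranges were 6590 to 10414 RPKM in caput/corpus and 6726 to 13838 RPKM in cauda libraries. For H2-Oa they were 77.5 to 105 RPKM and 62.5 to 131 RPKM. Ciita lay within the IS range of 23.9 to 49.4 RPKM and below the lowest cauda library (40.6 RPKM). H2-DMb1, at 543 RPKM, was also within the IS range (275 to 548 RPKM). H2-Aa, H2-Eb1, H2-DMa, H2-DMb2 and H2-Ob were above all 4 IS libraries but not within both other ranges. What the file holds was not tested.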

How the results depend on the processing

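In IS against cauda the 10 called members stayed called whichever library was left out (all genes 1641 to 3124). Of 242 alternative values over all 11 rows, the uncalled second Ciita row included, 26 lost the call. In IS against caput/corpus, leaving out 1 library gave 2 called members (without IS replicate 3) to 10 (without cauda replicate 1), and 234 to 1353 genes. Of the 242 values there, again with uncalled rows included, 40 lost the call and 12 gained it. No called member changed sign in the alternatives run. Without the title series 1 member and 233 genes were called in IS against caput/corpus, and 1481 genes against cauda. Maj3 libraries alone, where the lone caput/corpus library was assumed to vary like the others, gave 0 members and 0 genes against caput/corpus, 0 members and 30 genes against cauda, and 5 genes in caput/corpus against cauda. Maj4 alone gave 1144 genes against cauda and 28 in caput/corpus against cauda. Count files as filed gave 0 members in both IS comparisons and 0, 4 and 0 genes in the 3 comparisons. In that placement the reads of 2 columns change region, those of cauda replicate 1 drop out and a file that equals no column enters. The part of each change in the lost calls was not tested. Libraries with matching sources gave 954 genes in IS against caput/corpus and 52 in caput/corpus against cauda. DESeq2 gave 1262 and 637, and limma on log2(RPKM + 1) 934 and 143. In caput/corpus against cauda, leaving out 1 library gave 29 to 205 genes, no filter 184, and limma with 0.1 added 188; the causes were not tested.

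Same-numbered samples of different regions had deviations correlated at 0.0348 to 0.446 over 10 pairs, 1 of them below 0.1. Other pairs of a title series ran from 0.0731 to 0.294. These correlations do not settle whether the numbers mark pairs. The numbers were not taken as pairs because the labels do not say that they mark an animal or day. With the replicate block 6, 10 and 0 members were called in IS against caput/corpus, IS against cauda and caput/corpus against cauda. In the same fit 398, 2362 and 41 of all genes were called. The member lost in IS against caput/corpus was Cd74 (edgeR adjusted p = 0.0899).

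Signs turned in results that were never called. In caput/corpus against cauda the log2 fold change was 0.052, 0.019, 0.0016 and 0.020 for H2-Ab1, H2-Eb1, H2-DMb2 and Cd74 in Maj4 alone. It was 0.025, 0.0030 and 0.010 for H2-Ab1, H2-Eb1 and Cd74 with matching sources, and -0.063, -0.092 and -0.25 for H2-Oa without the title series, in Maj3 alone and as filed. Leaving out 1 library gave -0.084 to 0.18 for H2-Oa, -0.22 to 0.015 for Cd74 and, in IS against caput/corpus, -0.28 to 0.75 for the second Ciita row. Log2 ratios turned as follows. In caput/corpus against cauda H2-DMb2 to H2-DMb1 was -0.080 in Maj3 alone and -0.17 as filed. H2-O to H2-DM was 0.074 in IS against cauda in Maj4 alone, and 0.12, 0.021 and -0.099 in the 3 comparisons as filed. Ciita to class II chains and Cd74 was -0.18 in caput/corpus against cauda in Maj4 alone and -0.0073 in IS against caput/corpus with matching sources, and leaving out 1 library gave -0.25 to 0.33, -0.10 to 0.39 and -0.19 to 0.40. Cd74 to class II chains was -0.025 in caput/corpus against cauda with matching sources and -0.026 to 0.066 when 1 library was left out.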
